A study of Rattus norvegicus with 49 samples.

Results

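The genes of the vascular endothelial growth factor (VEGF) family were followed in rat thyroid through 13 groups of rats. The set comprised 8 genes, the ligands Vegfa, Vegfb, Vegfc and Pgf and the receptors Flt1, Kdr, Flt4 and Nrp1, which were represented by 13 of the 30367 probes on the array and by 8 of the 15154 gene symbols that could be matched. The members were chosen by gene name, as every probe whose RefSeq accession belongs to one of these genes, with each probe kept apart. Earlier results of these arrays were known at that point. They included the measured log2 signals and background marks of Vegfb, which was bright on some arrays and near background on others, and the values of Vegfb are therefore given as a description with no test.

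VEGF ligands are secreted proteins that act on the endothelial cells lining blood and lymph vessels. Vegfa is the main driver of blood vessel growth and permeability and signals chiefly through Kdr (VEGF receptor 2), while Flt1 (VEGF receptor 1) binds Vegfa, Vegfb and Pgf (placental growth factor) and can act as a decoy for Vegfa. Vegfc acts through Flt4 (VEGF receptor 3), the receptor of lymphatic endothelium, and Nrp1 (neuropilin 1) is a co-receptor that strengthens the signal through Kdr. In the thyroid, follicular cells are known to secrete VEGF ligands, and the follicles are wrapped in a dense net of fenestrated capillaries.

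Thyroids of male Sprague Dawley rats were measured on 49 one-colour Agilent arrays, 1 thyroid per array. Young rats were injected with 131I at 5 weeks of age, with 50 kBq and killed 3, 6 or 9 months later, or with 0.5, 5 or 500 kBq and killed 9 months later. Adult rats were injected with 50 kBq at 17 weeks of age and killed 3, 6 or 9 months later, and untreated controls were killed at 4, 7, 10 or 13 months of age. The exposed rats were 4, 7 and 10 months old at death when injected young and 7, 10 and 13 months old when injected as adults, and each exposed group was compared with the controls of that age. Groups held 4 arrays, but only 3 arrays were analysed for 5 kBq, for the 7-month controls and for the 13-month controls. The study compared exposed with non-exposed thyroids to look for lasting effects of exposure on expression.

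Signals are given as log2 of the processed spot signal minus the 75th percentile of the array, so that a value of 1 lies 1 log2 unit (2-fold) above that percentile, and levels are compared only within a probe. The share of spots marked as well above background ranged from 43.1% to 82.5% over the arrays, the 75th percentile of the signal lay between 61.0 and 4172, and 0 spots were saturated. Of the 1176 pairs of arrays, 2 pairs were nearly identical. Replicates 1 and 2 of the adult rats 6 months after 50 kBq differed by more than 2-fold in 67 of 15638 probes, and replicates 1 and 2 of the 13-month controls in 68 of 16053, where the next closest pair differed in 307 and the median pair in 1716.5. Both pairs lay on different slides and scan dates, and each was averaged and counted as 1 sample, which left 47 samples, with 3 in the former group and 2 in the latter. In addition, 3 arrays stood apart. Replicate 2 of the young rats 3 months after 50 kBq was dim, with a 75th percentile of 61.0 against at least 783 on the other arrays. Replicate 3 of the same group and replicate 2 of the 7-month controls went against the thyroid label, with a mean log2 signal over 12 markers of follicular thyrocytes (the hormone-producing cells) of -4.17 and -5.08, where the other 47 arrays lay between -0.24 and 2.13, and with 8 of the 12 markers well above background.

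Vegfa and Kdr were highest in the oldest controls, as were Vegfc, Nrp1 and the main probe of Pgf, and Vegfb was bright or dim. The 5′ flanks of 3 of these members, Vegfa, Vegfb and Kdr, are shown, and a link between the flanks and the signals was not tested. Each is the 250 bases before the annotated transcription start in RefSeq genes of rat build GRCr8, written 5′ to 3′ on the strand of the gene, and capitals mark GC boxes, the letters GGGCGG or their reverse complement CCGCCC, the motif bound by Sp1.
Vegfa, chr9:22452604-22452853, plus strand: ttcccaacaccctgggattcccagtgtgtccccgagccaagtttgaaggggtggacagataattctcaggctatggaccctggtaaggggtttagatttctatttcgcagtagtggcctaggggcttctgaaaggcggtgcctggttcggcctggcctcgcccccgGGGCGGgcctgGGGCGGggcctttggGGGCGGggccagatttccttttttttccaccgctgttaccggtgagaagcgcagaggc
Vegfb, chr1:213607153-213607402, minus strand: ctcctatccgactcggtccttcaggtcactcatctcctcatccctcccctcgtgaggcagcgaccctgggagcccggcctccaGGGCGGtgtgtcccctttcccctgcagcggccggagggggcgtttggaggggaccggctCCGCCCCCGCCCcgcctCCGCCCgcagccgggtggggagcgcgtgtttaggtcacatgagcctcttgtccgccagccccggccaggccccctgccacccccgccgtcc
Kdr, chr14:32571813-32572062, plus strand: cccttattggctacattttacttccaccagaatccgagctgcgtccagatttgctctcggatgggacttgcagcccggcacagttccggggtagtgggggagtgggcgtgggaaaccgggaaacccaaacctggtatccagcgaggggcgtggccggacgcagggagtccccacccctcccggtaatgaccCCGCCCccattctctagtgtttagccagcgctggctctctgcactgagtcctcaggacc
The flank of Vegfa held 3 GC boxes, that of Vegfb 4, of which an adjoining pair forms 1 run of capitals, and that of Kdr 1. Flt1 and Flt4 held 3 each, Vegfc and Pgf 2 each and Nrp1 0, so that 7 of the 8 members had at least 1, while 30.5% of the 33469 flanks of the same length did. For Vegfa the table lists a second start, whose flank held 0 GC boxes. The core of the hypoxia response element, ACGTG or CACGT, was in 0 of the 8 flanks and in 16.6% of all flanks, which says only that these letters are not in this window.

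Of the 13 probes, all passed the filter of being well above background on at least 3 arrays. Vegfa had 4 probes, of which A_64_P099886 and A_64_P155983 match NM_031836 and A_64_P099891 and A_64_P099893 match NM_001110334, and each was well above background on 49 of 49 arrays. The same held for the probes of Vegfc, Flt1 and Kdr and for both probes of Pgf. Nrp1 and the brighter probe of Flt4 were well above background on 48 arrays, missing only the dim array, the second probe of Flt4 (A_64_P140701) on 20 and the single probe of Vegfb on 24. Among several probes of a gene, the brightest in mean signal over the arrays is called its main probe.

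Across the 13 groups, most groups that followed each other in the order of the ligands' means did not differ beyond their spread. The main probe of Vegfa had its highest group mean in the 13-month controls (4.75 ± 0.31, SD, n = 2) and its lowest in the young rats given 0.5 kBq (3.72 ± 0.45, SD, n = 4), and of the 12 steps between neighbours in the order of the group means, 11 were no larger than the larger SD of the 2 groups. The exception was the step below the 13-month controls. Vegfc also had its highest mean in these controls (1.41 ± 0.24, SD, n = 2) and its lowest in the 7-month controls (-0.27 ± 1.55, SD, n = 3), and 10 of its 12 steps were within that spread. The main probe of Pgf ranged from 4.66 ± 0.42 (SD, n = 2) in the 13-month controls to 2.58 ± 2.60 (SD, n = 3) in the 7-month controls, with 12 of 12 steps within the spread. Both low means of the 7-month controls rest on the array with low thyrocyte markers, where Vegfc stood at -2.06 and Pgf at -0.38, against 0.73 and 0.51 for Vegfc and 4.53 and 3.58 for Pgf on the other arrays of the group.

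**Figure D1:**
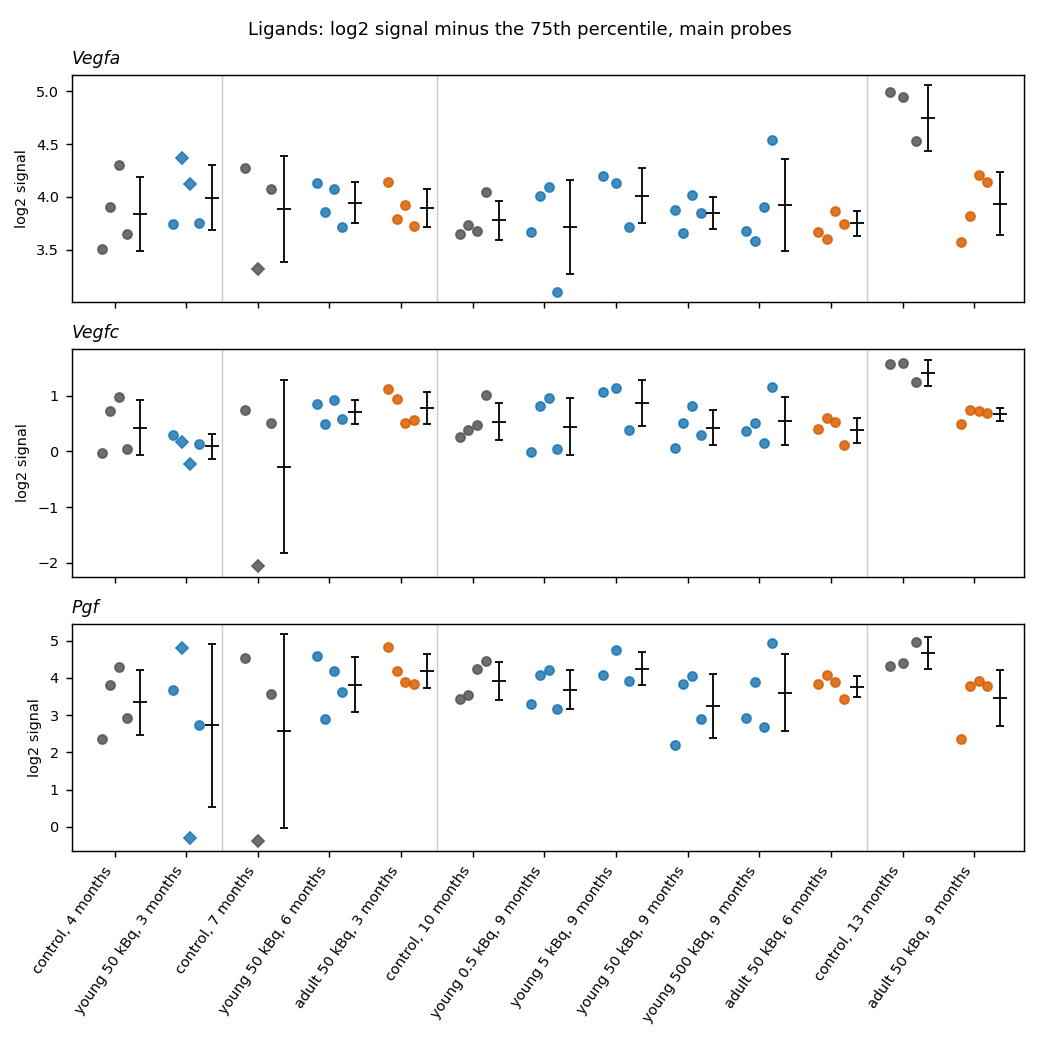
Log2 signal minus the 75th percentile of the array for the main probes of Vegfa, Vegfc and Pgf (vertical axes) in the 13 groups, ordered by age, with grey lines between ages of 4, 7, 10 and 13 months. Points are arrays (grey controls, blue injected young, orange injected as adults, diamonds the 3 arrays that stand apart), and black marks give the mean and SD over samples; the 13-month controls have the highest means, and the low diamonds of Pgf lie at -0.29 and -0.38.

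Among the receptors, Kdr had its highest group mean in the 13-month controls (2.92 ± 0.54, SD, n = 2) and its lowest in the young rats given 0.5 kBq (1.77 ± 0.09, SD, n = 4), with 11 of 12 steps within the spread. Nrp1 ranged from -2.33 ± 0.62 (SD, n = 2) in the 13-month controls to -3.11 ± 0.16 (SD, n = 4) in the adult rats 3 months after 50 kBq, with 12 of 12 steps within the spread. Flt1 had its highest mean 3 months after 50 kBq in young rats (-3.12 ± 1.27, SD, n = 4), where the dim array read -1.32 and the 3 others -3.85, -3.15 and -4.15, and its next highest in the 13-month controls (-3.17 ± 0.38, SD, n = 2). The main probe of Flt4 showed the smallest range of the main probes, from -3.37 ± 0.70 (SD, n = 4) to -4.05 ± 0.27 (SD, n = 2), and here the 13-month controls had the lowest mean.

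**Figure D2:**
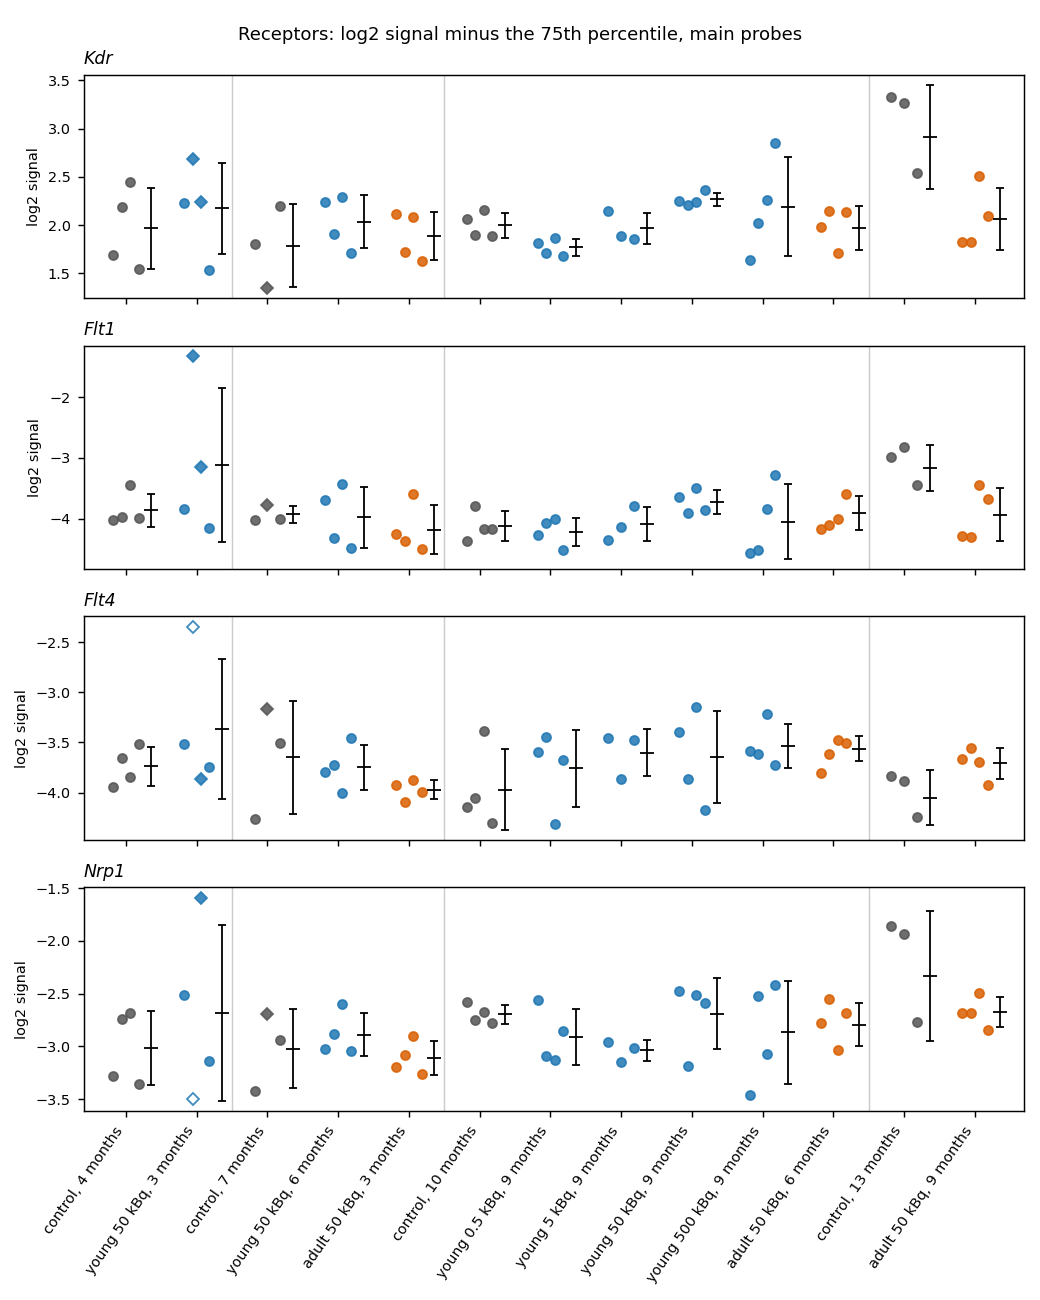
Log2 signal minus the 75th percentile of the array for the main probes of Kdr, Flt1, Flt4 and Nrp1 (vertical axes) in the 13 groups, with symbols as for the ligands and open symbols for arrays not well above background. In mean, the 13-month controls are highest for Kdr and Nrp1 and lowest for Flt4, and the dim array stands at -1.32 for Flt1.

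Exposure was compared with age-matched controls in 9 comparisons, in one limma fit of all arrays with the near-identical pairs averaged, and calls required a fold change of more than 1.5 in either direction together with an adjusted p (Benjamini-Hochberg) under 0.01. Of the 12 probes of the 7 members other than Vegfb, 0 were called in each comparison. Over all 25284 probes tested, limma called 3 (0.0119%) at 5 kBq and 3 (0.0119%) at 50 kBq 9 months after injection of young rats, and 0 (0%) in each of the other 7 comparisons, so that few calls were made for any gene. The p-values measure the spread between samples within groups, in which rat, sampled tissue and array quality cannot be told apart. This spread is pooled over all 13 groups, with the 3 arrays that stand apart among them. The number of arrays limits the precision of the p-values.

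At 0.5, 5, 50 and 500 kBq, 9 months after injection of young rats, 0 of the 12 probes had an unadjusted p under 0.05, as did 225, 419, 328 and 387 of all probes. Log2 differences from the 10-month controls lay between -0.23 and 0.21 for 0.5 kBq, between -0.34 and 0.76 for 5 kBq, between -0.67 and 0.40 for 50 kBq and between -0.31 and 0.44 for 500 kBq. Kdr read 1.81, 1.71, 1.87 and 1.68 in rats given 0.5 kBq and 2.15, 1.89 and 1.86 in those given 5 kBq. The rats given 50 kBq read 2.25, 2.21, 2.24 and 2.37, and the rats given 500 kBq read 1.64, 2.02, 2.26 and 2.85. The 10-month controls read 2.06, 1.89, 2.15 and 1.89. The 4 arrays at 0.5 kBq were all lower and the 4 at 50 kBq all higher than these controls. Those at 5 and 500 kBq overlapped them. The log2 differences of Kdr were small beside their SE, at -0.23 ± 0.24 for 0.5 kBq and -0.03 ± 0.25 for 5 kBq. They were 0.27 ± 0.24 for 50 kBq and 0.19 ± 0.24 for 500 kBq. The share of all probes that separated in this way was not counted, so no response of Kdr is read from it. The slope of Kdr over these 4 activities was 0.16 ± 0.08 (SE) log2 per log10 unit of activity, which limma did not call (adjusted p = 1.000), and this was the only 1 of the 12 probes with an unadjusted p under 0.05 for the slope. Without replicate 4 at 500 kBq the slope was 0.09, with array weights 0.06 and without scaling 0.09. Of all probes, 0 (0%) were called for the slope.

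At 3 months after 50 kBq in young rats, 3 of the 12 probes had an unadjusted p under 0.05, as did 9338 of all probes. These were A_64_P099891 of Vegfa (log2 difference 1.21 ± 0.45, SE, limma adjusted p = 0.0565), A_64_P099893 of Vegfa (0.81 ± 0.36) and Flt1 (0.74 ± 0.36). For A_64_P099891 the exposed arrays read 2.88, 6.27, 4.42 and 2.74 and the 4-month controls 2.20, 2.96, 3.67 and 2.64. The pair of high values belongs to the dim array and to the array with low thyrocyte markers, and without the 3 arrays that stand apart the difference was -0.06 for this probe and -0.14 for Flt1. Without scaling the differences of all 3 probes turned negative, while the median of all probes moved from 0.30 to -1.38. Without replicate 1 or replicate 4, which leaves both high arrays and 1 other in the group, A_64_P099891 was called (adjusted p = 0.00838 and 0.00736). At 6 months in young rats and at 3 months in adult rats, both set against the 7-month controls, Vegfc was the 1 probe of 12 with an unadjusted p under 0.05, at 0.98 ± 0.38 and 1.05 ± 0.38 (SE, limma adjusted p = 0.668 and 0.998). Vegfc read 0.86, 0.48, 0.92 and 0.57 in the young and 1.11, 0.93, 0.50 and 0.56 in the adult rats, and the 7-month controls read 0.73, -2.06 and 0.51, so that the groups overlapped except for the control array with low thyrocyte markers. At 6 months in adult rats, 0 of 12 probes had an unadjusted p under 0.05, and differences lay between -0.15 and 0.41.

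At 9 months after 50 kBq in adult rats, Vegfa and Kdr were lower than in the 13-month controls before adjustment. The main probe of Vegfa read 3.58, 3.82, 4.21 and 4.15 in the exposed rats and 4.99, 4.95 and 4.53 on the control arrays, of which the first and second are the averaged pair. Kdr read 1.83, 1.83, 2.51 and 2.10 in the exposed rats and 3.33, 3.27 and 2.54 in the controls. For both genes every control array was higher than every exposed array, by a wide margin in the pair and by a small one for the third control. How many of all probes separated in this way was not counted. The log2 difference was -0.81 ± 0.27 (SE) for the main probe of Vegfa and -0.85 ± 0.29 (SE) for Kdr, which limma did not call (adjusted p = 0.173 for each). Of the 12 probes, 4 had an unadjusted p under 0.05, as did 3753 of all probes, and the median of the 12 was -0.76 where the median of all probes was -0.12. Without the 3 arrays that stand apart the differences were unchanged and the adjusted p was 0.0320 for Vegfa and 0.0361 for Kdr, so that still 0 of 12 probes were called, while 2.48% of all probes were. Against the third control alone, with the pair left out, the differences were -0.59 (adjusted p = 0.586) and -0.47 (adjusted p = 0.712). Without scaling both differences turned sign, to 0.23 for Vegfa and 0.19 for Kdr, while the median of all probes moved from -0.12 to 0.92. Marker levels differed between the same groups: the mean of 12 thyrocyte markers was 0.91, 1.35, 1.46 and 1.26 in the exposed rats and 2.09, 2.13 and 1.94 in the controls, and that of 11 skeletal muscle markers was 6.02, 6.34, -3.06 and 6.33 against 1.62, 1.69 and 3.59. The thyrocyte markers did not overlap, with 0 of 12 higher in the exposed group and a median log2 difference of -0.83, and the muscle markers overlapped through 1 exposed rat. Of the 14 marker lists, 3 did not overlap, and the others of these were macrophages, from -1.87 to -1.08 in the exposed rats and from -3.27 to -1.90 in the controls, and white adipocytes, from 0.28 to 0.95 against -1.80 to 0.16. Their part in the differences of Vegfa and Kdr was not tested.

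The effect of 50 kBq was compared between ages and times by 3 interaction contrasts, of which those with adult rats at 9 months share the 13-month controls. In these contrasts 0 of 12 member probes and 0 (0%) of all probes were called. The effect at 9 months in young minus that in adult rats was 1.12 ± 0.37 (SE, limma adjusted p = 0.518) for Kdr and 0.88 ± 0.35 (SE, adjusted p = 0.531) for the main probe of Vegfa. The effect at 9 minus that at 3 months in adult rats was -1.80 ± 0.58 (SE, adjusted p = 0.261) for Vegfc, and -0.90 (adjusted p = 1.000) without replicate 2 of the 7-month controls, the array with low thyrocyte markers. In young rats, the difference between 9 and 3 months lay between -1.14 and 0.26 over the 12 probes.

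**Figure D3:**
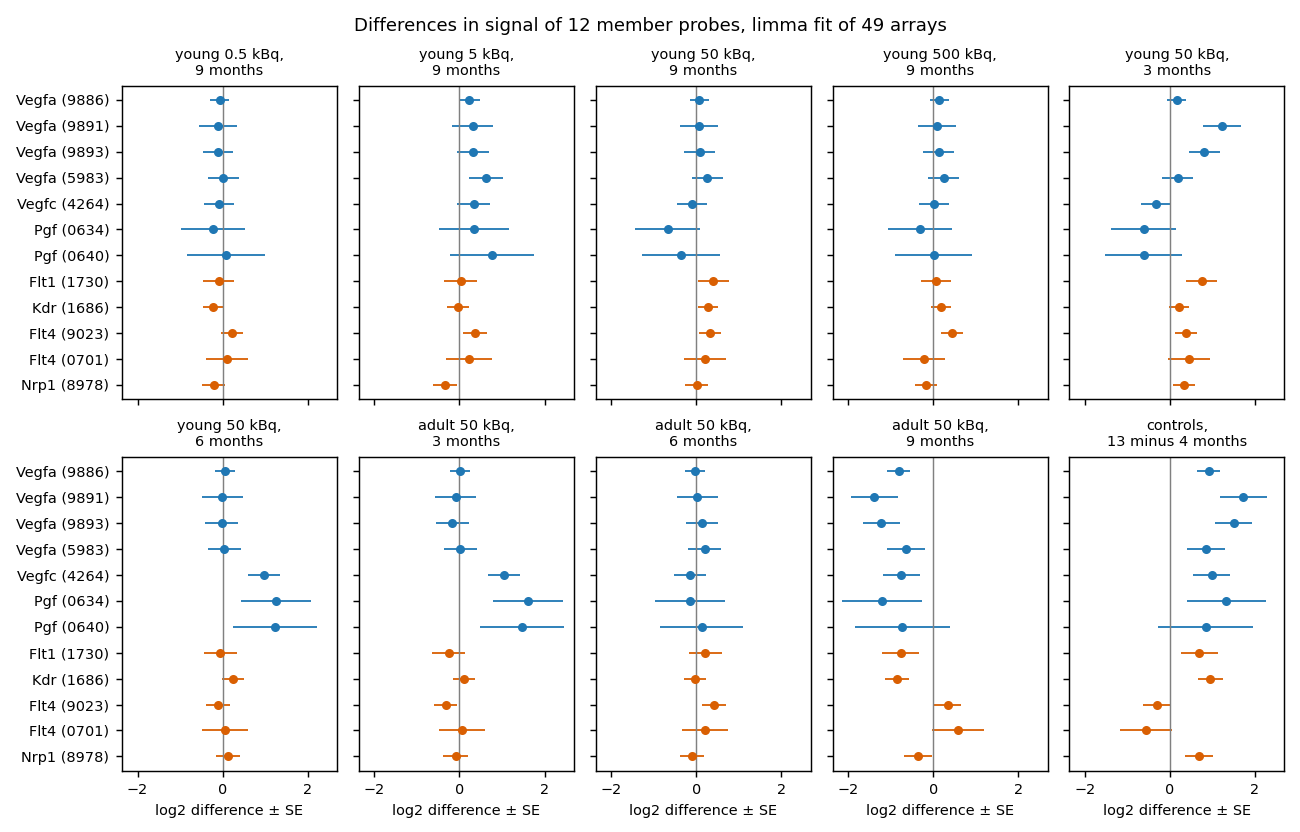
Log2 differences (horizontal axes) with their SE from the limma fit for the 12 probes of 7 members, ligands in blue and receptors in orange, named with the last 4 digits of the probe, for 9 exposed groups against age-matched controls and for the controls of 13 minus 4 months. Most differences lie near 0; those of Vegfa and Kdr point up in the last panel and down in the adult rats at 9 months, which share the 13-month controls.

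Age without exposure was described in the controls. Vegfa and Kdr had their highest mean signals at 13 months, as did Vegfc, Nrp1 and the main probe of Pgf. In the fit of all arrays 0 of 12 member probes were called between controls of 13 and 4 months. Calls were made with the 3 arrays that stand apart, all of other groups, left out of the fit. For A_64_P099891 of Vegfa the 4-month controls read 2.20, 2.96, 3.67 and 2.64 and the 13-month controls 5.37, 5.45 and 3.78. For A_64_P099893 they read 0.35, 1.06, 1.58 and 0.58 against 3.07, 3.17 and 1.66. The main probe read 3.50, 3.91, 4.30 and 3.65 against 4.99, 4.95 and 4.53. Kdr read 1.69, 2.18, 2.45 and 1.54 at 4 months against 3.33, 3.27 and 2.54 at 13 months. In each of these 4 probes the averaged pair was the highest and the third control lay just above the highest 4-month control. The share of all probes with such an order was not counted.

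The log2 difference of 13 minus 4 months was 1.73 ± 0.55 (SE, limma adjusted p = 0.0542) for A_64_P099891, 1.497 ± 0.437 (adjusted p = 0.0425) for A_64_P099893, 0.91 ± 0.27 (adjusted p = 0.0472) for the main probe of Vegfa and 0.95 ± 0.29 (adjusted p = 0.0476) for Kdr. In the fit of all arrays 0 of 12 member probes were called and 4 (0.0158%) of all probes, while 6 of 12 member probes and 6516 of all probes had an unadjusted p under 0.05. Without the 3 arrays that stand apart, a setting chosen after seeing the data and one that removes none of these controls, the same differences were called for 4 member probes, the 3 of Vegfa named here (adjusted p = 0.00174, 0.0039 and 0.00853) and Kdr (adjusted p = 0.00988), and 7.21% of all probes were called higher. Vegfc differed by 0.98 ± 0.43 (SE) with all arrays (adjusted p = 0.145) and had an adjusted p of 0.0150 without them. With the dim array alone left out, A_64_P099891 was called (adjusted p = 0.00796). With the pair left out the difference was 0.91, 0.77, 0.69 and 0.57 for these 4 probes, with adjusted p-values between 0.341 and 0.522. These calls rest on the averaged pair, which is 1 of 2 samples. Without scaling, the differences were 0.89, 0.66, 0.07 and 0.12 for these 4 probes (adjusted p from 0.478 to 0.968), while the median of all probes moved from 0.17 to -0.66. The 75th percentiles of the 13-month control arrays, 1333, 1412 and 1441, were the lowest of the arrays after the dim array and 1 with low thyrocyte markers. An F test over the 4 control groups called 0 of 12 member probes and 6 (0.0237%) of all probes, and without the 3 arrays 1 member probe, A_64_P099891 of Vegfa (adjusted p = 0.00528), and 5.68% of all probes.

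Markers of other tissues differed between these controls too. The mean log2 signal of 11 skeletal muscle markers was 6.09, 4.99, 5.67 and 6.55 in the 4-month controls and 1.62, 1.69 and 3.59 in the 13-month controls. That of 12 thyrocyte markers was -0.24, 0.96, 1.70 and 0.12 against 2.09, 2.13 and 1.94, with 11 markers well above background on each of these arrays. The mean of 7 markers of squamous epithelium was 1.28, -5.66, 1.41 and -0.06 against -5.79, -5.44 and -5.42. The 14 markers of blood endothelium had means from -1.89 to -1.57 at 4 months and from -1.64 to -1.50 at 13 months. The 7 markers of C cells, which make calcitonin, had means from -2.35 to 0.24 at 4 months and from 1.21 to 3.30 at 13 months. Of the 14 marker lists, those of muscle, thyrocytes and C cells did not overlap between these groups, and the other 11 did. The part of these tissues in the differences of Vegfa and Kdr was not tested. In whole tissue, fewer cells of a type and less RNA per cell cannot be told apart.

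Variation within the groups was compared with the levels of cell type markers. Deviations from the group mean were compared over the 44 samples without the 3 arrays, a setting chosen after seeing the data. Of these arrays, 1 was dim and 2 had low thyrocyte markers. Permutation was within groups, for 28 relations of 7 members with 4 marker lists. The 3 ligands varied with the thyrocyte markers. Pearson's r was 0.86 for Vegfc, 0.84 for Vegfa and 0.74 for Pgf, and Spearman's rho was 0.87, 0.82 and 0.81, where each permutation p was 1e-05, the smallest that 100000 permutations can give, and each adjusted p was 9.33e-05. Without the 2 samples farthest from the median of the markers r was 0.82, 0.80 and 0.71, and over the 44 samples with slide means removed it was 0.83, 0.81 and 0.72. Over all 47 samples r was 0.81 for Vegfc, 0.53 for Vegfa and 0.90 for Pgf. With slide means removed from the 47 samples it was 0.76, 0.24 and 0.86. The levels share the scaling of each array, and the 44 samples fell along 1 continuous range of marker levels. How many other probes vary as closely with these markers was not counted.

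Of the receptors, Kdr, Flt1 and Nrp1 varied with the markers of blood endothelium over the 44 samples, and Nrp1 did not pass over all 47. In the same 44 samples r was 0.59 for Kdr (adjusted permutation p = 0.00207), 0.54 for Flt1 (0.00431) and 0.48 for Nrp1 (0.0151), with rho of 0.56, 0.50 and 0.47. The values without the 2 farthest samples were 0.55, 0.46 and 0.53, and those over the 44 samples with slide means removed were 0.66, 0.55 and 0.53. Flt4 was the exception, with r of 0.10 with blood endothelium and -0.11 with thyrocytes (adjusted permutation p = 0.703 for each). Markers of lymphatic endothelium were not among the lists compared, so the relation of Flt4 to them was not tested. Kdr and Flt1 also varied with the thyrocyte markers (r = 0.49 and 0.52), and Nrp1 did not pass the test there (r = 0.09, adjusted permutation p = 0.731). For Vegfc and Pgf the r with endothelium, 0.25 and 0.29, did not pass the test, and for Vegfa it was 0.42 (adjusted permutation p = 0.0544). Whether a member's 2 correlations differ was not tested. With the skeletal muscle markers r was negative for Kdr (-0.51, rho = -0.50, adjusted permutation p = 0.0121), Vegfa (-0.46, rho = -0.59, adjusted permutation p = 0.00431), Flt1 (-0.41, rho = -0.36, adjusted permutation p = 0.0417) and Vegfc (-0.34, rho = -0.60, adjusted permutation p = 0.00133). Without the 2 farthest samples it was -0.36, -0.49, -0.11 and -0.62, so that the relation of Flt1 rests on those samples. Pgf did not pass with muscle by r (-0.37, adjusted permutation p = 0.124) but did by rho (-0.54, adjusted permutation p = 0.00304). With the squamous markers Vegfa had r = -0.38 (rho = -0.37, adjusted permutation p = 0.0461), and -0.20 without the 2 farthest samples, on which it rests. The other 6 members did not pass the test there. Over all 47 samples, Kdr and Flt1 passed with endothelium (r = 0.66 each), as did Vegfa (0.51, adjusted permutation p = 0.0104). Nrp1 did not (0.22, adjusted permutation p = 0.50). Kdr and Flt1 did not pass with thyrocytes (0.38 and 0.19, adjusted permutation p = 0.207 and 0.622). Flt1 with muscle and Vegfa with squamous markers did not pass either (-0.20 and -0.26, adjusted permutation p = 0.347 and 0.206).

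**Figure D4:**
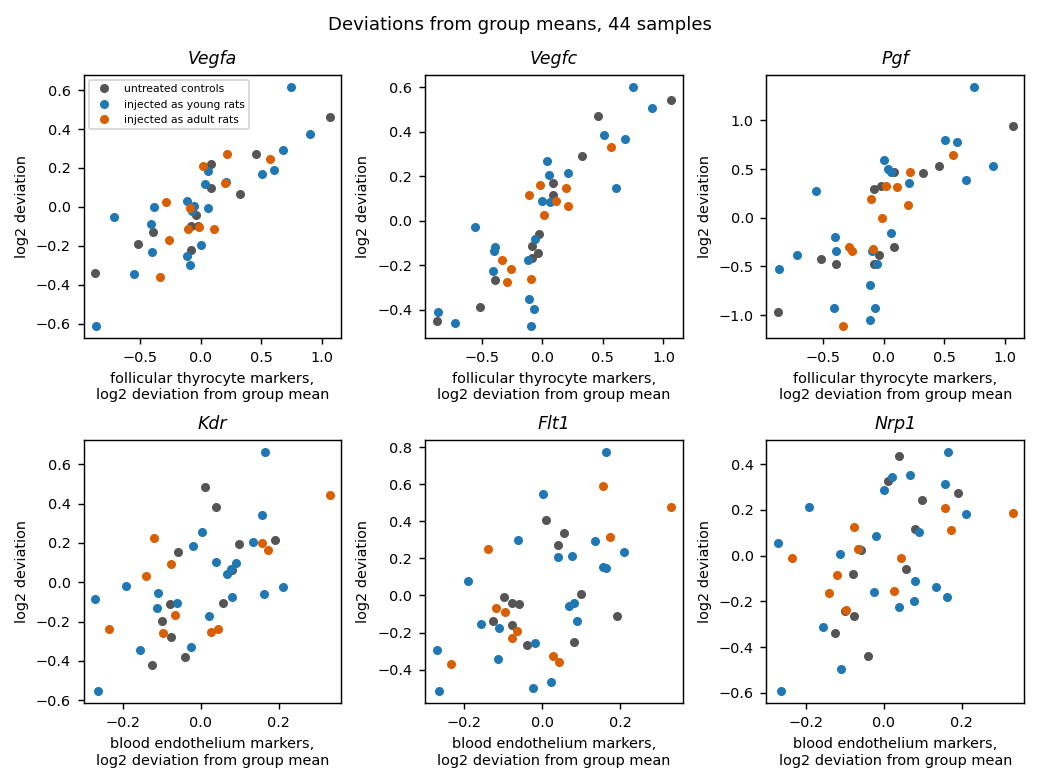
Deviation of each sample's log2 signal from its group mean for 3 ligands (vertical axes, top) against the mean of 12 thyrocyte markers, and for 3 receptors (bottom) against the mean of 14 markers of blood endothelium, over 44 samples. The ligands follow the thyrocyte markers with r from 0.74 to 0.86, and the receptors follow the endothelial markers with r from 0.48 to 0.59.

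Of the 21 pairs among the 7 members, 7 had an adjusted permutation p under 0.05 over the 47 samples and 9 over the 44 samples. The share of all pairs of probes that vary as closely was not counted, and the levels share the scaling of each array. No relation particular to these genes is therefore read from the pairs. The closest pair over the 44 samples was Vegfc with Pgf (r = 0.83, rho = 0.83), followed by Vegfa with Vegfc (r = 0.77, rho = 0.72). Of the 9 pairs, 4 joined a ligand to a receptor. Vegfa with Flt1 had r = 0.66 (rho = 0.67, adjusted permutation p = 0.000473), Vegfa with Kdr 0.64 (rho = 0.61, adjusted permutation p = 0.00049), Pgf with Kdr 0.46 and Vegfc with Kdr 0.45. Kdr with Nrp1 reached 0.73 (rho = 0.68, adjusted permutation p = 0.00057) and Kdr with Flt1 0.71 (rho = 0.66, adjusted permutation p = 0.00028). Over all 47 samples r was 0.80 for Vegfc with Pgf and 0.72 for Vegfa with Vegfc, and it was 0.71 for Vegfa with Kdr and 0.67 for Kdr with Flt1. For Kdr with Nrp1 it was 0.37 (adjusted permutation p = 0.240), while rho was 0.45 (adjusted permutation p = 0.042). Flt4 passed with no other member, with r between -0.25 and 0.20 over the 44 samples. Probes of 1 gene varied together as well. The 2 NM_001110334 probes of Vegfa had r = 0.96 and the 2 Pgf probes 0.95 over the 44 samples, and the 2 Flt4 probes, of which 1 was dim, 0.38.

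As the probes most alike over the 49 arrays, those matched to another gene with the highest Pearson r are given with no test. Kdr was most like a probe of Clec14a (r = 0.87, 0.85 on deviations from group means), Cyyr1 (0.86 and 0.78) and another probe of Clec14a (0.84 and 0.74), and Clec14a encodes a membrane protein of endothelial cells. Vegfa was most like Kdelr1, a receptor that returns proteins to the endoplasmic reticulum (0.92 and 0.87), Calu (0.89 and 0.87) and Myo9b (0.89 and 0.86). Vegfc was most like Spats2l (0.95 and 0.93), Slit2 (0.94 and 0.93) and Ptma (0.94 and 0.92). Pgf was most like Gng7, St14 and Pex5l (0.92 each), Flt4 like Klrk1, Nlgn2 and Mip (0.81, 0.79 and 0.79), and Nrp1 like Sh3bgrl1, Rala and Vps35l (0.80, 0.76 and 0.75). Flt1 was most like Lhx6, Rbm4b and Srd5a2 (0.89, 0.88 and 0.86), which fell to between 0.72 and 0.79 without the 3 arrays that stand apart, where Cyyr1 and Clec14a came first (0.90 and 0.84).

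Vegfb, a ligand of Flt1 known mainly from heart and muscle, showed a pattern of its own. On 23 of the 49 arrays its signal lay between -1.40 and 1.02, on 25 it lay between -9.67 and -7.95 and was not well above background, and on 1, replicate 3 of the 4-month controls, it was -6.80 and marked as well above background. The gap between the bright arrays and the rest was 5.40 log2 units wide. A gap of at least 3 log2 units with at least 10 arrays on either side was found for 31 of the 25284 probes tested (0.123%).

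Young rats at 500 kBq read -0.25, 0.26, 0.29 and 1.02, and all 4 were bright. Those at 0.5 kBq read -9.13, 0.68, 0.97 and -9.41, those at 5 kBq 0.46, 0.78 and -9.38, and those at 50 kBq after 9 months 0.93, -9.22, -9.34 and -9.55. The 10-month controls read -8.23, -9.24, -9.67 and -8.58, with 0 bright. Young rats after 3 months read -9.12, -1.40, 0.14 and 0.14 and after 6 months -9.45, 0.35, -0.19 and 0.07, so that 3 of 4 were bright in each. The 7-month controls read -8.91, -8.46 and -7.95. The 4-month controls, which were not exposed, read -8.54, 0.48, -6.80 and 0.13.

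Adult rats read -9.01, -0.17, -0.05 and -8.51 after 3 months, 0.24, 0.04, -9.34 and -8.98 after 6 months and -9.12, -8.66, -8.60 and -8.50 after 9 months. The 13-month controls read -0.39, -0.46 and -8.73. Bright arrays thus occurred in 8 of the 9 exposed groups and in 2 of the 4 control groups, and mixed with dim ones in 9 of the 13 groups. In both near-identical pairs the 2 arrays, on different slides and scan dates, were both bright and differed by less than 1 log2 unit.

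**Figure D5:**
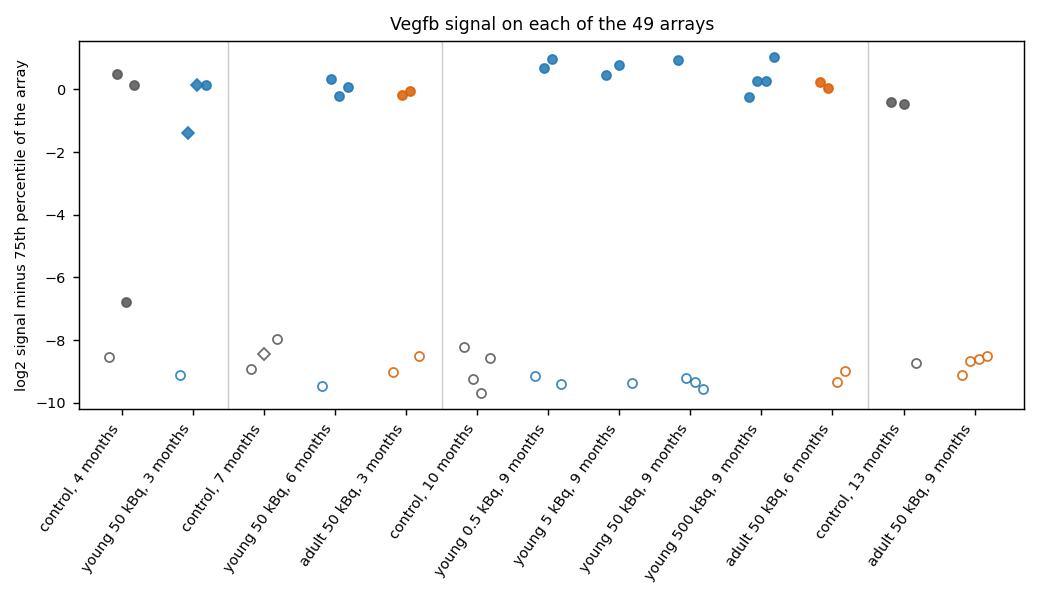
Log2 signal of the Vegfb probe minus the 75th percentile of the array (vertical axis) on each of the 49 arrays in the 13 groups, filled where the signal was well above background and open where it was not. Grey points are controls, blue rats injected young and orange rats injected as adults; bright arrays lie between -1.40 and 1.02 and all but 1 of the others between -9.67 and -7.95.

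Where every array of a group was not well above background, the difference has only a bound, taken from the mean of the bright group over all its samples against the higher, on each dim array, of its own signal and the lowest signal called well above background. Vegfb was at least 141-fold higher at 500 kBq than in the 10-month controls (means 0.33 and -8.93), where 4 of 4 arrays against 0 of 4 were well above background. The same calculation gave 17.1-fold higher at 5 kBq (2 of 3 arrays). For young rats 6 months after 50 kBq it gave 19.6-fold higher than in the 7-month controls (3 of 4 against 0 of 3). In the remaining comparisons with a control group that was dim throughout, the values lay between 1.01- and 6.01-fold. For adult rats 9 months after 50 kBq it gave 8.03-fold lower than in the 13-month controls, whose mean rests on the bright pair. In all of these except 500 kBq, dim arrays entered the mean of the brighter group at their measured signal. Those values are therefore not strict bounds, and they follow the number of bright arrays.

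By scan date, 13 of 24, 8 of 14 and 2 of 11 arrays were bright, and by slide between 0 of 5 and 5 of 8 among slides with more than 1 array. The part of slide and date in the pattern was not tested. The 3 genes most like Vegfb over the 49 arrays were Pla2g2c (r = 0.59), Rgs18 (0.52) and Dapp1 (0.49), and on deviations from the group means r was 0.57, 0.41 and 0.45.

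The wider pathway was described by 5 lists. Of 24 tested genes of VEGF receptor signalling, 4 tested co-receptors and further ligands, 8 tested genes of hypoxia sensing, 20 hypoxia-induced genes and 19 angiopoietin, Notch and tip cell genes, 0 were called in either direction in the fit of all arrays. Nrp2, a co-receptor for Vegfc, was well above background on 29 of 49 arrays and Vegfd, a second ligand of Flt4, on 1. In the adult rats 9 months after 50 kBq, set against the 13-month controls, the median log2 difference was -0.35 in the angiopoietin list and 0.34 in the hypoxia-induced list, beside -0.12 over all probes.

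Without the 3 arrays that stand apart, 10 of 75 tested genes of the 5 lists (13.3%) were called between controls of 13 and 4 months, beside 10.2% of all probes. The named genes are those called. Angpt2, the antagonist of the Tie2 receptor that loosens vessels, was lower by 1.92 log2 units (adjusted p = 0.000549) and Hey2, a Notch target, was higher by 1.45 (adjusted p = 0.00557). Of the signalling genes, Gab1 and Iqgap1 were higher (1.30 and 1.43) and Akt1 and Map2k1 lower (log2 differences of -0.82 and -0.72). In the hypoxia lists, Kdm3a, Aldoa, Bnip3 and Egln3 were lower, with log2 differences of -0.91, -2.31, -1.55 and -3.26, of which Aldoa encodes a glycolytic enzyme abundant in skeletal muscle. In adult rats 9 months after 50 kBq, which share the 13-month controls, 2 of 75 (2.67%) were called beside 2.48% of all probes. Angpt2 was higher by 1.88 and Akt1 by 0.91 (adjusted p = 0.0014 and 0.00343). Among the marker lists, Foxe1 of thyrocytes (1.88) and Pcsk1 of C cells (3.16), were called higher in controls of 13 than of 4 months, and Adgre1 of macrophages (1.55) was called higher in the exposed adult rats at 9 months.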

How the data were processed

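The authors hybridised Cy3-labelled total RNA of 1 thyroid to each Agilent Sureprint G3 Rat GE 8x60K array and deposited one Agilent Feature Extraction file per array. The authors deposited the scanner's intensity of each spot with its background already subtracted, and arrays had not been brought to 1 scale. Per the file headers, flags mark signals well above background, saturated spots and outliers. The authors' table of their own fold changes was not used. Their notes name Partek, and the paper names Nexus Expression without its test or normalization.

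Control spots and outliers were left out, log2 of the signal minus the array's 75th percentile was taken and spots of a probe were averaged. Accessions were matched to RefSeq symbols of GRCr8 for 17998 of 30367 probes. Near-identical arrays were averaged, chosen after seeing the data. Probes well above background on at least 3 arrays were fitted with limma 3.58.1 (R 4.3.3), 1 mean per group, tested on simulated data. Files held 3 scan dates and 8 slides. Permutations used numpy 2.4.6, ranks scipy 1.17.1 and figures matplotlib 3.10.9, in Python 3.11.15.

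The members and lists were chosen with earlier results of these data known. All probes of the members were named. Other list genes were named where called (at most 4 per list and comparison, by adjusted p), as were the 3 probes most alike to each main probe. An item that met this rule is not reported here. Replicate numbers of compared groups did not pair the arrays (r of same-numbered deviations from -0.52 to 0.497, median -0.0552, over 32 pairs).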

Additional observations from a re-analysis of the deposited data

Results flagged for a closer look

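Within groups of 4 samples, a single sample lay far from the others in 9 of the 117 combinations of a member probe and a group, where chance flags about 1 in 20. For Vegfa A_64_P155983, replicate 1 of the young rats 6 months after 50 kBq stood at -0.64, above -1.40 to -1.32 in the others, and replicate 2 of the young rats 9 months after 50 kBq at -1.72, below -1.37 to -1.32. In the latter rat Nrp1 was low as well, at -3.18 against -2.59 to -2.48. The main probe of Pgf read 2.35 in replicate 1 of the adult rats 9 months after 50 kBq, against 3.78 to 3.93. Flt1 read -3.45 in replicate 3 of the 4-month controls, against -4.02 to -3.97. The dim Flt4 probe A_64_P140701 read -8.17 in replicate 1 of the 10-month controls, against -6.77 to -6.50. For Vegfb, replicate 1 stood alone in the young rats given 50 kBq, at -9.12 after 3 months and -9.45 after 6 months, where the others were bright, and at 0.93 after 9 months, where the others were dim.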

How the results depend on the processing

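In the fit of all arrays 0 member probes were called in each of the 14 contrasts and the F test. The count moved for the controls of 13 minus 4 months, to 3 at an adjusted p under 0.05, 2 with array weights, and, chosen after seeing the data, 4 with each array as 1 sample and 4 without the 3 arrays that stand apart. The F test gave 4 with each array as 1 sample and 1 without the 3 arrays. At 500 kBq, the exposed group fitted with its controls alone gave 1, from the Vegfb probe, which the fit covers as it does every probe and from which nothing is read here. Leaving out 1 array gave counts from 0 to 1 for young rats 3 months after 50 kBq (without replicate 1 or 4) and for the controls of 13 minus 4 months (without the dim array), and from 0 to 0 for the other results. The replicate block gave 0 in every comparison and changed no call. All other settings gave 0. Over all probes, the controls of 13 minus 4 months gave 4 calls, against 1251 at an adjusted p under 0.05, 1061 with array weights, 1302 with each array as 1 sample and 2563 without the 3 arrays, and from 0 to 792 on leaving out 1 array. The F test gave 6 against 292, 416, 1152 and 1428 under the same settings. Adult rats at 9 months gave 0 against 710 with array weights and 624 without the 3 arrays. Young rats 3 months after 50 kBq gave 0 against 3711 at an adjusted p under 0.05, 3872 without replicate 1 and 3238 without replicate 4.

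Without scaling, 7 differences with an unadjusted p under 0.05 turned sign. They were, 3 months after 50 kBq in young rats, A_64_P099891 (-0.48) and A_64_P099893 (-0.88) of Vegfa and Flt1 (-0.95), at 9 months in adult rats Kdr (0.19) and the main probe of Vegfa (0.23), Nrp1 in controls of 13 minus 4 months (-0.15), and the main probe of Vegfa at 9 minus 3 months in adult rats (0.11). Flt1 3 months after 50 kBq in young rats also turned with array weights (-0.0559) and without the 3 arrays (-0.14), as did A_64_P099891 without them (-0.0558). The cause was not tested. Vegfb was bright on 23 arrays under quantile normalization and normexp too. The number of arrays limits what can be called, and signals near background limit Vegfb and the second Flt4 probe.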
